A study of Homo sapiens with 27 samples.

Results

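The 10 genes described here belong to the cellular response to low oxygen. They are HIF1A and EPAS1, which encode the oxygen-regulated subunits HIF-1α and HIF-2α, and 8 genes known as their transcriptional targets (EGLN3, VEGFA, ADM, ANGPTL4, CA9, CA12, BNIP3 and NDRG1). They were chosen by symbol, and the values of all transcripts that GENCODE 29 assigns to a symbol were summed. All 10 were found among 34584 genes with a matched transcript, and all 10 passed the filter on low counts that left 17220 genes for testing.

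In cells with enough oxygen, prolyl hydroxylases of the EGLN family modify the HIF alpha subunits, the VHL ubiquitin ligase recognises them, and they are degraded. When oxygen falls the subunits persist, pair with ARNT and bind short elements with the core ACGTG or GCGTG near their target genes. This control acts on the HIF alpha proteins, so the mRNA levels measured here are not a measure of HIF activity. The label of a hypoxia response is a name for the gene group: no low-oxygen treatment is labelled, and the oxygen level of the cultures is not given in the sources used here.

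Poly-A selected messenger RNA of 9 human cell lines was sequenced, 3 libraries to a line and 27 in all. The series' design text calls the 3 libraries of a line biological replicates; nothing says outright that they came from separate cultures. Each library's title has a P number, which differs among the 3 libraries of a line and whose meaning is not stated. Every p-value here rests on the spread among libraries, which may be technical. The lines, with their tissue labels, are SK-Mel 24 and SK-Mel 28 (melanoma lines, skin), U2-OS (osteosarcoma, bone), A549 (lung carcinoma, lung), U251 (glioblastoma, brain), Caco2 (colorectal carcinoma, colon), HepG2 (a liver tumour line, liver), RT4 (from a bladder tumour; its tissue label is kidney) and BJ (skin fibroblasts with the tissue label epithelial). All were kept at 37 °C and 5% CO2. A549 and BJ grew in DMEM, RT4 and U2-OS in McCoy medium, and the other 5 in EMEM, with 15% serum for SK-Mel 24 and 10% serum for the other 8 lines, so that line and medium cannot be told apart. In such bulk samples, fewer cells with a transcript and less of it per cell cannot be told apart either.

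Libraries held 15597117 to 32583547 estimated counts. Marker genes at 1 TPM (a level scaled to transcript length and library total) or more numbered 6 of 6 liver markers in HepG2 and in Caco2, 6 of 6 melanocyte markers in SK-Mel 28 and 4 of 6 in SK-Mel 24, and 6 of 6 fibroblast but 2 of 6 epithelial markers in BJ. Of the 4 in SK-Mel 24, only SOX10 (252 ± 31 TPM) stood above every line other than the melanoma lines, and U251 had 3 of 6 melanocyte markers. RT4 had 5 of 5 urothelial and 1 of 5 kidney markers, and A549 had 0 of 5 lung markers. Caco2 had 3 of 5 colon markers, as did A549, and U2-OS 3 of 6 bone markers, as did HepG2. These 2 counts therefore do not set Caco2 or U2-OS apart. Brain markers numbered 4 of 5 in U251 and 5 of 5 in SK-Mel 24. HepG2 stood apart: mitochondrial genes took 71.6%, 34.6% and 33.3% of its gene counts, against 0.955% to 5.88% in the other 24 libraries. Transcripts annotated as protein coding held 75.9% to 78.5% of the TPM of nuclear protein-coding genes in HepG2, against 86.0% to 89.6% elsewhere, and retained-intron transcripts 9.29% to 11.4%, against 3.72% to 5.64%. Levels in HepG2 are therefore given with these differences in view, and the tests were repeated without it.

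**Figure D1:**
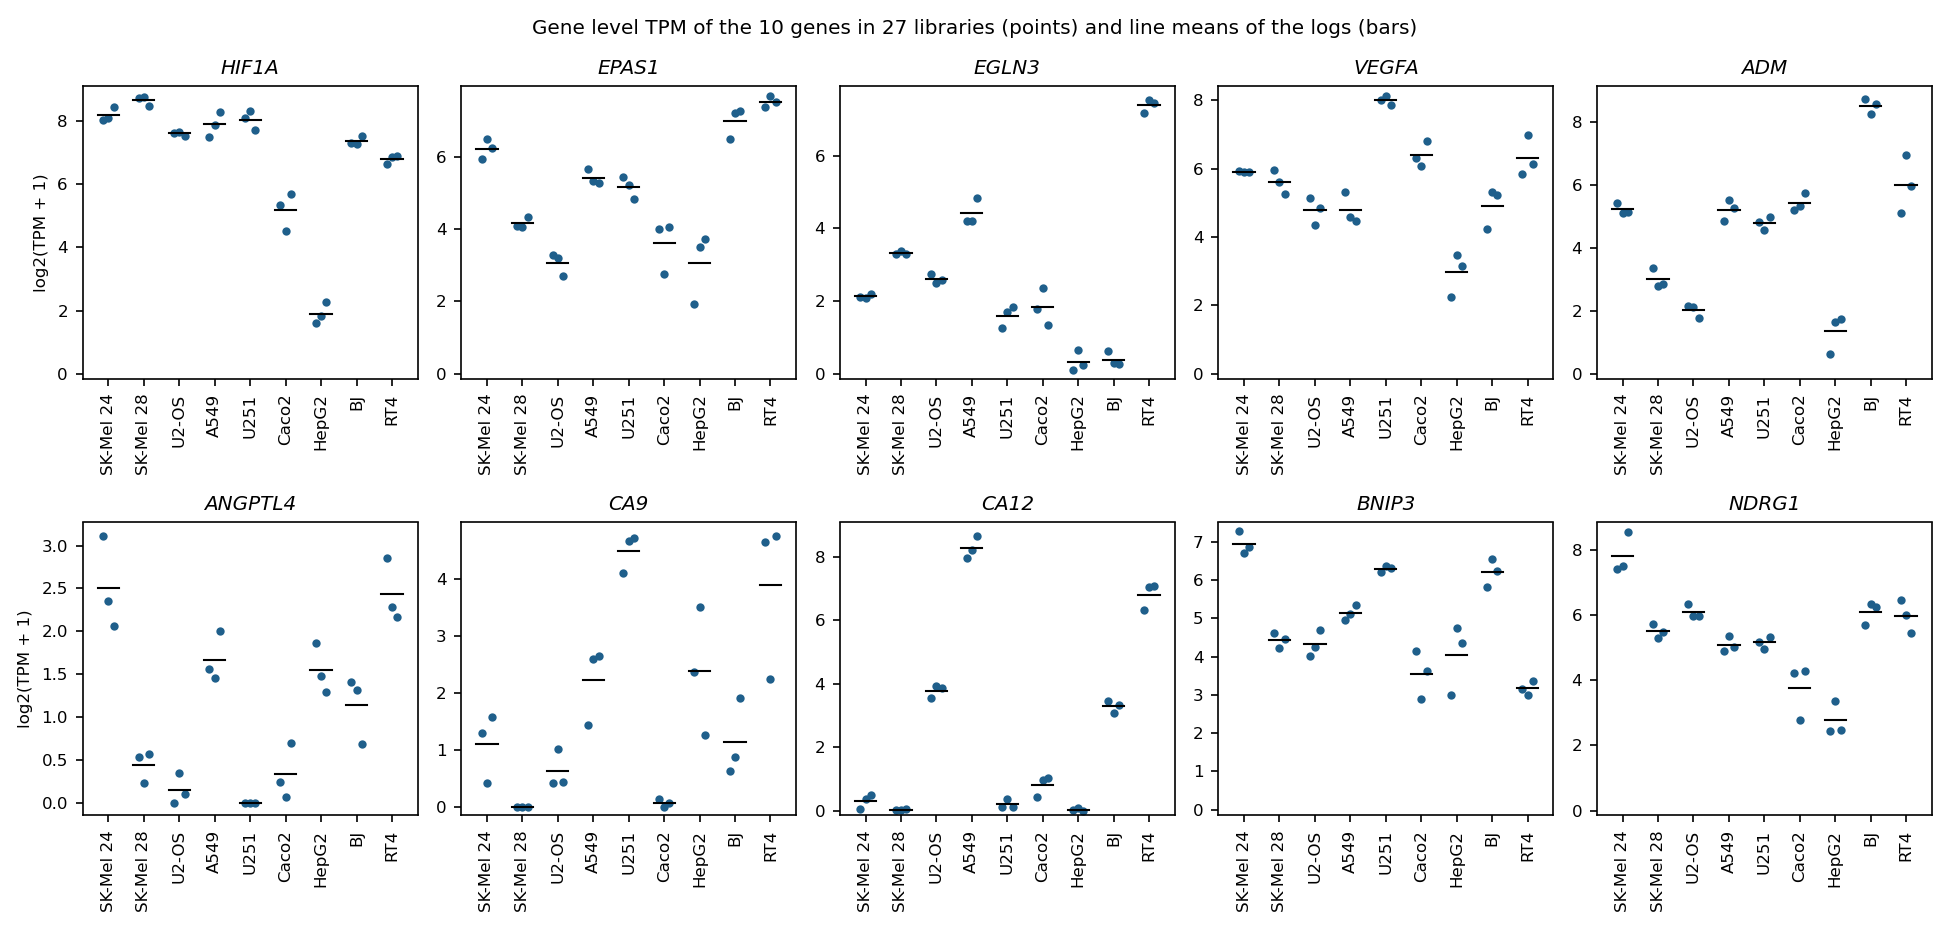
Gene TPM of the 10 genes in each of the 27 libraries, as log2(TPM + 1) on the vertical axis of each panel and the 9 lines on the horizontal axis. Points are libraries and bars are means of the logs; HIF1A is lowest in HepG2 and Caco2, EGLN3 stands far above the other lines in RT4, and CA12 is high in A549 and RT4.

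The first question was whether the genes differed among lines at all. All 10 passed the F test over the 9 lines (edgeR, adjusted p between 5.8e-19 and 1.21e-08), but so did 98.3% of all tested genes. The tests of single lines say more. A line was compared with the mean of the other 8 on the log2 scale, and a call needed an adjusted p under 0.05 and at least a 2-fold difference. Of 90 such tests of the 10 genes, 31 were called higher and 25 lower (34.4% and 27.8%), against 20.3% and 13.6% of the tests of all genes.

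HIF1A (ENSG00000100644.16, chromosome 14, 61695513 to 61748259, plus strand, GRCh38) encodes the alpha subunit of HIF-1. It was abundant in 7 of the 9 lines and low in Caco2 and HepG2. The highest level was in SK-Mel 28, with 414, 425 and 354 TPM in its 3 libraries. HepG2 held 2.07, 2.56 and 3.90 TPM, and Caco2 held 39.5, 22.1 and 50.025 TPM. No HepG2 or Caco2 library reached the lowest value of any other line, which was 98.8 TPM in RT4.

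Against the mean of the other 8 lines, HIF1A was lower in HepG2 (log2 fold change -3.72 ± 0.26, SE, edgeR adjusted p = 5.04e-12) and in Caco2 (-2.03 ± 0.23, adjusted p = 3.88e-08). It was higher in SK-Mel 28 (1.74 ± 0.17, adjusted p = 2.04e-09). The calls in SK-Mel 24 (log2 fold change 1.06 ± 0.18) and U251 (1.01 ± 0.18) lay at the 2-fold limit and went below it without HepG2, at 0.60 and 0.55. Leaving out single libraries also took them below it, as did summing protein-coding transcripts only (0.99 in SK-Mel 24 and 0.97 in U251). For SK-Mel 24 this was the third of its libraries (0.90 without it). For U251 it was its own second library (0.885 without it), the second of Caco2 or HepG2, or the first of A549 or BJ (0.965 to 0.999). The U251 call also ended with DESeq2 or its size factors (0.95), without mitochondrial genes (0.98) and with the P number as a covariate (0.83). From the highest line to the seventh, neighbours in the order SK-Mel 28, SK-Mel 24, U251, A549, BJ, U2-OS and RT4 did not differ by the test. RT4 exceeded Caco2 (log2 fold change 1.88 ± 0.27, adjusted p = 1.65e-06), and Caco2 exceeded HepG2 (1.499 ± 0.268, adjusted p = 3.48e-05).

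EPAS1 (ENSG00000116016.13, chromosome 2, 46293667 to 46386703, plus strand) encodes the alpha subunit of HIF-2, known from endothelium and from kidney cancer. It was led by RT4 and BJ rather than by the lines with most HIF1A. RT4 held 165, 202.8 and 183 TPM and BJ held 89.2, 146 and 152 TPM, and these 2 lines did not differ by the test (log2 fold change of RT4 over BJ 0.45 ± 0.24, edgeR adjusted p = 0.106). U2-OS had the lowest fitted level among the 9 lines, with 8.71, 8.10 and 5.54 TPM. The libraries of RT4 and BJ all lay above those of every other line, the nearest being SK-Mel 24 at 60.0, 88.8 and 75.4 TPM.

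EPAS1 was called higher in RT4 (log2 fold change against the other 8 lines 3.02 ± 0.14, edgeR adjusted p = 1.15e-15), in BJ (2.51 ± 0.14, adjusted p = 1.01e-13) and in SK-Mel 24 (1.02 ± 0.16). It was called lower in U2-OS (-3.06 ± 0.23, adjusted p = 2.44e-11), Caco2 (-1.68 ± 0.21) and SK-Mel 28 (-1.31 ± 0.20). The SK-Mel 24 call ended, at values from 0.92 to 0.99, without the second SK-Mel 24 library, the third one, the first of HepG2 or BJ, the second of Caco2, all of HepG2, or the mitochondrial genes. In HepG2 the test gave -0.63 ± 0.19, which is under 2-fold, but with protein-coding transcripts only it gave -2.85 (adjusted p = 7.41e-08). With these transcripts the SK-Mel 28 value was -0.93, under 2-fold. That alternative was chosen after the data were seen.

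The 2 alpha subunits thus had different orders over the lines. The log2 ratio of EPAS1 to HIF1A TPM was 0.73 ± 0.08 in RT4 (SD, n = 3) and -0.37 ± 0.38 in BJ. It lay between -4.72 ± 0.28 in U2-OS and -1.67 ± 0.27 in Caco2 in the 6 lines SK-Mel 24, SK-Mel 28, U2-OS, A549, U251 and Caco2. In HepG2 it was 1.36 ± 0.83, from 2 low levels. RT4 and HepG2 were the lines in which every library had more EPAS1 than HIF1A TPM. For HepG2 most of that EPAS1 TPM lay in a retained-intron transcript described further on. In protein-coding transcripts alone HepG2 had less EPAS1 than HIF1A, at 0.761 ± 0.203 and 2.70 ± 0.91 TPM. RT4 averaged 133.9 ± 62.1 TPM of EPAS1 and 100.5 ± 6.1 TPM of HIF1A in such transcripts. The first RT4 library had 38.4% of its EPAS1 TPM in them, so the order in every RT4 library holds for all transcripts only.

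**Figure D2:**
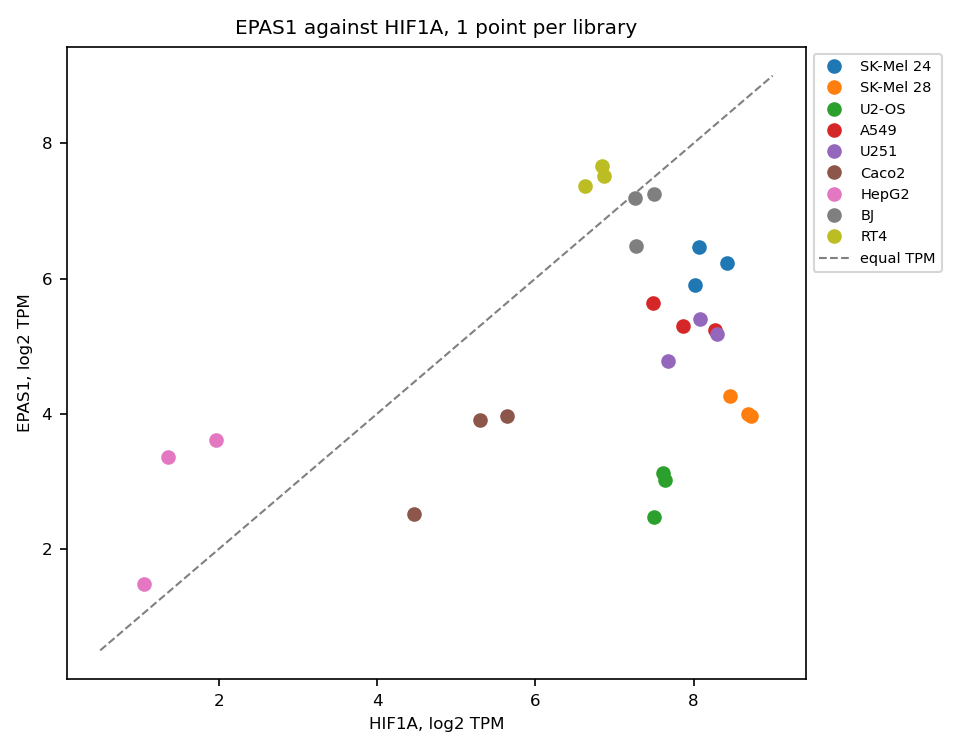
Level of EPAS1 (vertical axis) against HIF1A (horizontal axis), both as log2 TPM, with 1 point per library and 1 colour per line. Libraries above the dashed line of equal TPM are those of RT4 and HepG2; BJ lies close to it, and SK-Mel 28 and U2-OS lie farthest below it.

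EGLN3 (ENSG00000129521.13, chromosome 14, 33924231 to 34462774, minus strand) encodes PHD3, a prolyl hydroxylase that marks HIF alpha for degradation and is itself a HIF target. It was highest in RT4. The RT4 libraries held 143, 186 and 175 TPM, and A549, the next line, held 17.5, 17.5 and 27.8 TPM. BJ held 0.528, 0.225 and 0.191 TPM and HepG2 held 0.0766, 0.564 and 0.178 TPM. RT4 did not overlap any other line, and neither did A549, whose libraries lay above the 9.43 TPM that was the highest value in the 7 lines below.

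RT4 exceeded A549 by a log2 fold change of 3.32 ± 0.28 (edgeR adjusted p = 4.17e-10), and A549 exceeded U2-OS by 2.29 ± 0.28 (adjusted p = 1.95e-07). Against the other 8 lines the difference was 6.28 ± 0.15 in RT4 and 2.55 ± 0.17 in A549. EGLN3 was lower in BJ (-3.72 ± 0.33), HepG2 (-2.39 ± 0.31) and U251 (-1.48 ± 0.25). The EGLN3 gene model overlaps SPTSSA on the same strand (34432789 to 34462356) through EGLN3-208, a processed transcript. No protein-coding EGLN3 transcript extends past position 34222877. Protein-coding transcripts held 124.6 ± 5.9 TPM of EGLN3 in RT4 and 14.2 ± 4.9 TPM in A549. How reads were divided between SPTSSA and EGLN3-208 was not tested. SPTSSA averaged 20.0 ± 5.7 TPM in RT4 and 13.4 to 48.0 TPM in the other lines. EGLN3 met the rule for a line-enriched gene in RT4, which asks for an excess over each of the other 8 lines and at least 4-fold over the next. Of the 10 genes, 2 met it in any line, against 14.1% of all tested genes.

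The other was ADM (ENSG00000148926.9, chromosome 11, 10304680 to 10307397, plus strand) in BJ. ADM encodes adrenomedullin, a secreted vasodilator peptide. BJ held 430.1, 307 and 381 TPM. RT4, the next line, held 34.0, 122.75 and 62.1 TPM, and U2-OS, with the lowest fitted level, held 3.50, 3.39 and 2.46 TPM. BJ did not overlap any other line, while the libraries of RT4 overlapped those of Caco2, A549 and SK-Mel 24.

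BJ exceeded RT4 by a log2 fold change of 2.21 ± 0.29 (edgeR adjusted p = 5.13e-07). Without the first RT4 library this margin was 1.97, just under the 4-fold rule, and ADM was then not line-enriched. Against the other 8 lines ADM was higher in BJ (4.39 ± 0.16, adjusted p = 8.37e-18), RT4 (1.91 ± 0.18) and Caco2 (1.09 ± 0.20). The Caco2 call ended without HepG2 (0.91). ADM was lower in U2-OS (-3.88 ± 0.30, adjusted p = 4.82e-11), HepG2 (-2.08 ± 0.27) and SK-Mel 28 (-1.97 ± 0.26).

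VEGFA (ENSG00000112715.21, chromosome 6, 43770184 to 43786487, plus strand) encodes the main growth factor of blood vessel formation. It was highest in U251, with 260, 279 and 232 TPM. RT4 followed with 56.7, 126 and 69.4 TPM and Caco2 with 78.1, 66.0 and 111 TPM. U251 did not overlap any other line, and RT4 and Caco2 overlapped each other. HepG2 had 3.78, 10.2 and 7.93 TPM, below all other libraries, but its fitted level, a log2 CPM of 5.54, stood beside that of BJ at 5.56.

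U251 exceeded RT4 in VEGFA by a log2 fold change of 1.20 ± 0.28 (edgeR adjusted p = 0.000925), and no other neighbours in the order were called in this fit. Caco2 exceeded SK-Mel 24 by 0.97 ± 0.29, just under 2-fold, and was called in 7 of 35 alternatives, at up to 1.06. Against the other 8 lines VEGFA was higher in U251 (2.46 ± 0.17, adjusted p = 1e-11) and RT4 (1.11 ± 0.19). The RT4 call ended without the second RT4 library (0.85) and with protein-coding transcripts only (0.98). The Caco2 value, 0.95 ± 0.20, was under 2-fold; it became a call without the first HepG2 library (1.01), the second Caco2 library (1.035) or the mitochondrial genes (1.02). VEGFA was lower in U2-OS (-1.52 ± 0.24) and A549 (-1.26 ± 0.24). In HepG2 the test gave -0.73 ± 0.23, under 2-fold, and -1.07 (adjusted p = 0.000229) with protein-coding transcripts only.

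ANGPTL4 (ENSG00000167772.11, chromosome 19, 8363289 to 8374373, plus strand) encodes a secreted inhibitor of lipoprotein lipase. It was low everywhere. SK-Mel 24 held 7.65, 4.12 and 3.17 TPM and RT4 held 6.23, 3.86 and 3.48 TPM, the highest of the 9 lines by TPM. HepG2 averaged 1.96 ± 0.61 TPM. Its fitted level, a log2 CPM of 2.265, stood between RT4 at 2.376 and SK-Mel 24 at 2.203. U251 had 0 counts in all 3 libraries, of 73372219 counts in all. Against a floor of 3 counts over those libraries, ANGPTL4 was at least 155-fold higher in RT4 than in U251. It was at least 137-fold higher in HepG2 and at least 130.0-fold in SK-Mel 24. These bounds use counts pooled over the 3 libraries of a line and cover counting error only. ANGPTL4 was called higher than the other 8 lines in 5 lines, including BJ, where it averaged 1.25 ± 0.56 TPM (SD, n = 3). A line at 0 pulls the mean of the others down, so these calls do not place ANGPTL4 at a high level; the BJ call ended without the first or second BJ library (edgeR adjusted p = 0.0805 and 0.092).

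CA9 and CA12 encode membrane-bound carbonic anhydrases that convert carbon dioxide to bicarbonate at the cell surface and are known as hypoxia markers of tumours. CA9 (ENSG00000107159.12, chromosome 9, 35673856 to 35681159, plus strand) was highest in U251 and RT4. U251 held 16.2, 24.4 and 25.5 TPM and RT4 held 24.3, 3.77 and 26.0 TPM. The second RT4 library stood apart from the other two and below all 3 of U251. The 2 lines did not differ by the test (log2 fold change of U251 over RT4 -0.04 ± 0.68, edgeR adjusted p = 0.989).

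SK-Mel 28 had 0 CA9 counts among 75506289. With counts pooled over the 3 libraries of a line, CA9 was at least 421.5-fold higher in RT4 than in SK-Mel 28. In U251 it was at least 353-fold higher. The RT4 libraries held 487, 33 and 637.6 counts, so the second alone lies below the pooled bound. Caco2 averaged 0.0490 ± 0.0476 TPM. The gene was called higher than the other 8 lines in U251, RT4, HepG2 and A549, again with a line at 0 among the others; the A549 call, at 4.02 ± 2.00 TPM, ended without the second or the third of its libraries (adjusted p = 0.0519 and 0.0607). The CA9 model overlaps ARHGEF39 on the opposite strand (35673856 to 35675866), and the strand setting of the counting is not given in the sources used here. ARHGEF39 averaged 5.53 ± 0.59 TPM in U251, 6.03 ± 1.33 TPM in RT4 and 16.6 ± 1.4 TPM in SK-Mel 28, where CA9 was at 0. The lowest ARHGEF39 mean was that of BJ, a line with far less CA9 than U251 or RT4. Whether ARHGEF39 reads add to the CA9 level was not tested. Next below U251 and RT4 in CA9 came HepG2, with 4.17, 10.3 and 1.40 TPM, overlapping A549 at 1.71, 5.04 and 5.29 TPM. HepG2 exceeded A549 by a log2 fold change of 1.67 ± 0.73 (edgeR adjusted p = 0.0479). That call ended in 25 of 34 alternatives, at 0.78 without the second HepG2 library and 0.096 with protein-coding transcripts only. In HepG2 protein-coding transcripts held 4.63% ± 4.75 of the CA9 TPM, against 53.7% in U251 and 43.6% in RT4. Their share was also low in U2-OS (8.35% ± 14.46) and BJ (21.7% ± 15.0), lines with few CA9 counts.

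CA12 (ENSG00000074410.13, chromosome 15, 63321378 to 63382161, minus strand) had the widest range of the 10 genes. Its line levels spanned 12.80 on the log2 CPM scale, more than 99.2% of tested genes, whose median range was 3.43. A549 held 250.2, 295 and 399 TPM and RT4 held 78.5, 130 and 133 TPM. U2-OS averaged 12.8 ± 1.8 TPM and BJ 8.79 ± 1.22 TPM. The other 5 lines stayed below 1.05 TPM in every library, and no 2 of these 3 sets of lines (A549 and RT4, U2-OS and BJ, the other 5) overlapped.

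A549 exceeded RT4 in CA12 by a log2 fold change of 1.05 ± 0.34 (edgeR adjusted p = 0.0121), a call that ended without the third A549 library (0.83, adjusted p = 0.0694), without HepG2 (0.99) and with the P number of the titles as a covariate (0.88). RT4 exceeded BJ by 3.90 ± 0.38 (adjusted p = 3.46e-09), BJ and U2-OS did not differ by the test, and U2-OS exceeded Caco2 by 3.67 ± 0.40 (adjusted p = 2.84e-08). Against the other 8 lines the difference was 8.27 ± 0.21 in A549 and 7.09 ± 0.21 in RT4. CA9 and CA12 thus shared RT4 as a high line. U251 was high in CA9 and low in CA12 (0.156 ± 0.124 TPM), and A549 was highest in CA12.

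BNIP3 (ENSG00000176171.11, chromosome 10, 131966455 to 131982013, minus strand) encodes a mitochondrial outer membrane protein that takes part in mitophagy. SK-Mel 24 held 155, 104.2 and 115 TPM and RT4, at the low end, held 7.92, 7.05 and 9.20 TPM. SK-Mel 24 lay above all other lines. BNIP3 was the member in which RT4 was low: its log2 fold change there was -2.03 ± 0.26 (edgeR adjusted p = 3.05e-07). It was higher in SK-Mel 24 (1.8 ± 0.19), BJ (1.68 ± 0.19), HepG2 (1.29 ± 0.20) and U251 (1.14 ± 0.20, but 0.99 with the P number as a covariate), and lower in Caco2 (-1.73 ± 0.25) and U2-OS (-1.33 ± 0.24). None of its 8 pairs of neighbouring lines was called in this fit. U251 over A549, at 0.99 ± 0.29, was just under 2-fold and was called in 8 of 35 alternatives, among them those without the first or the third U251 library, the second of Caco2, the third of A549 (1.17) or all of HepG2 (1.02).

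The HepG2 value of BNIP3 depended on the scale. Its TPM there was 7.00, 26.0 and 19.5, in the lower part of the 9 lines, and on log2(TPM + 1) with limma the difference was -0.97 (adjusted p = 0.000989), opposite in sign to the count test. On that scale the median of all tested genes was -1.21 in HepG2, against -0.17 in the count test, so the TPM value is above the median shift and the count value is too.

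NDRG1 (ENSG00000104419.14, chromosome 8, 133237171 to 133302022, minus strand) encodes a cytoplasmic stress-response protein. SK-Mel 24 held 170.1, 181 and 372 TPM, and RT4 averaged 64.6 ± 22.4 TPM, BJ 68.7 ± 15.6 TPM and U2-OS 67.7 ± 10.7 TPM. SK-Mel 24 did not overlap any other line. It exceeded RT4 by a log2 fold change of 1.29 ± 0.38 (edgeR adjusted p = 0.00475), which was 0.79 (adjusted p = 0.0800) without the third of its libraries. Against the other 8 lines NDRG1 was higher in SK-Mel 24 (2.39 ± 0.23, adjusted p = 2.33e-09) and lower in Caco2 (-1.99 ± 0.33) and HepG2 (-1.10 ± 0.31). The HepG2 call ended without the third HepG2 library (-0.82) and with DESeq2 (-0.99). BJ (0.96 ± 0.26) and RT4 (0.93 ± 0.26) lay just under the 2-fold limit.

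Counted by line, RT4 had the most members called higher: 7 of 10, against 18.6% of all tested genes, and 1 lower, against 14.2%. In BJ 5 were higher (20.1% of all genes) and 1 lower (13.1%), and in SK-Mel 24 5 were higher (19.0%) and 1 lower (11.2%). SK-Mel 24 had 3 higher calls without HepG2, and 3 without the third of its own libraries. A549 had 4 higher (18.4%) and 1 lower (10.8%), and U251 4 higher (15.0%) and 3 lower (11.6%). With the P number as a covariate U251 had 2 higher. Caco2 had 1 higher (19.8%) and 5 lower (13.9%); the higher count was 2 without the first HepG2 library, the second Caco2 library or the mitochondrial genes, and 0 without HepG2. U2-OS had 1 higher (25.3%) and 4 lower (10.9%), and SK-Mel 28 1 higher (20.3%) and 4 lower (13.4%). HepG2 had 3 higher (25.8%) and 5 lower (23.5%). Without CA9 and ANGPTL4, the genes with a line at 0, RT4 had 5 of 8 higher and the 8 genes had 22 higher and 23 lower calls in 72 tests. The median log2 difference of all 10 members was 2.46 in RT4, 1.21 in BJ, -1.68 in Caco2 and -1.42 in U2-OS. The median of all tested genes lay between -0.17 and 0.13. These member medians include CA9 and ANGPTL4 and were not computed without them. CA9 was at -2.64 in U2-OS and -4.45 in Caco2, and ANGPTL4 at -3.79 and -1.68. None of these 4 values was called, and their standard errors were too large to give them meaning.

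**Figure D3:**
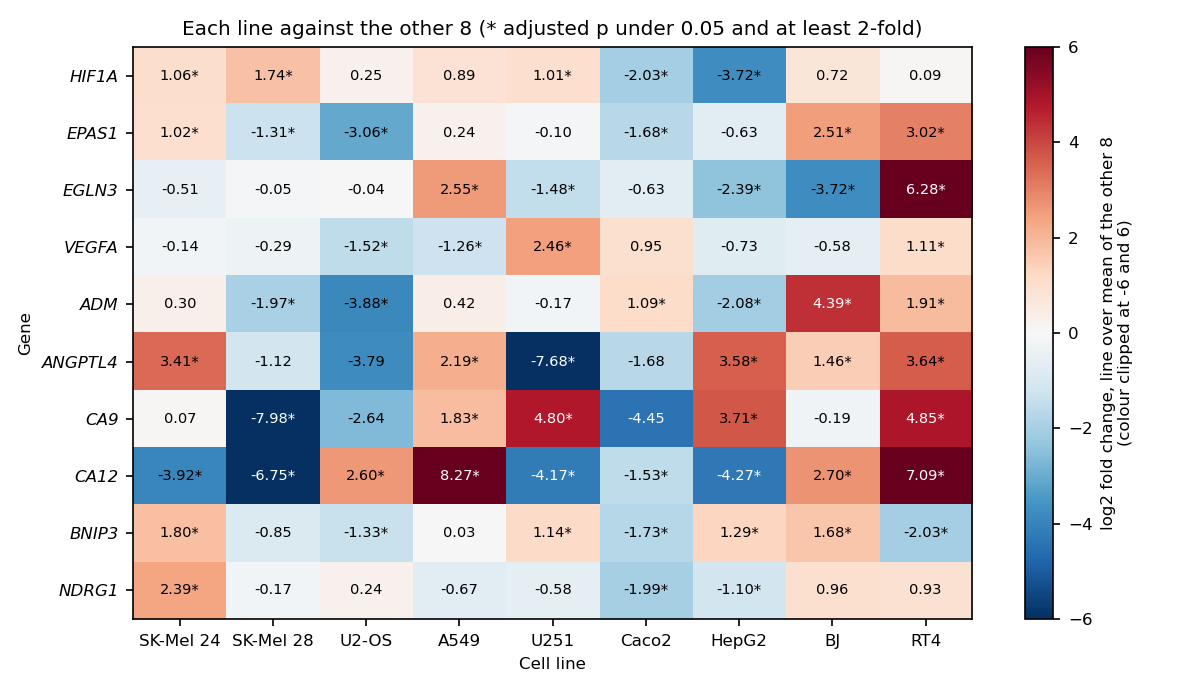
Log2 fold change of each line (columns) over the mean of the other 8, for the 10 genes (rows), with the value in each cell, red for higher and blue for lower, and a star for a call. RT4 has 7 starred higher values and Caco2 has 5 starred lower values; values of CA9 and ANGPTL4 depend on a line at 0.

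Each of the 10 genes was called in 17 (HIF1A) to 31 (CA12) of the 36 pairs of lines, and 43.3% of the tests of all genes in these pairs were called. The pair with a shared tissue label was SK-Mel 28 and SK-Mel 24. There 7 of the 10 genes were lower in SK-Mel 28 (16.5% of all tested genes were) and 0 were higher by edgeR (15.5% of all genes were). At an unadjusted p under 0.05 there was 1 higher member, and 0 by DESeq2 and 1, EGLN3 at 1.19, by limma on log2(TPM + 1). The median log2 difference of the 10 was -2.17, and that of all genes 0.00. HIF1A was not among the 7: SK-Mel 28 held 414, 425 and 354 TPM, against 260.2, 269 and 344 TPM in SK-Mel 24. Its log2 fold change of SK-Mel 28 over SK-Mel 24 was 0.60 ± 0.26 (edgeR adjusted p = 0.0599).

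EPAS1 stood at 16.0, 15.6 and 19.2 TPM in SK-Mel 28, against 60.0, 88.8 and 75.4 TPM in SK-Mel 24, a log2 fold change of -2.07 ± 0.25 (edgeR adjusted p = 1.67e-07). BNIP3 stood at 23.4, 17.5 and 21.1 TPM in SK-Mel 28, against 155, 104.2 and 115 TPM in SK-Mel 24, a log2 fold change of -2.35 ± 0.30 (adjusted p = 6.04e-07). NDRG1 stood at 52.6, 38.1 and 44.0 TPM in SK-Mel 28, against 170.1, 181 and 372 TPM in SK-Mel 24, a log2 fold change of -2.27 ± 0.39 (adjusted p = 2.91e-05). In all 3 genes the libraries of the 2 lines did not overlap by TPM. Those of HIF1A and EGLN3 did not overlap either, with SK-Mel 28 above SK-Mel 24. The share of all genes with such a separation was not counted.

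ADM, at 9.33, 6.04 and 6.35 TPM in SK-Mel 28 and 42.0, 33.7 and 34.8 TPM in SK-Mel 24, differed by -2.01 ± 0.30 (edgeR adjusted p = 5.38e-06). ANGPTL4 averaged 0.367 ± 0.174 TPM in SK-Mel 28 and 4.98 ± 2.36 TPM in SK-Mel 24 (-4.03 ± 0.67, adjusted p = 2.99e-05). CA9 had 0 counts in SK-Mel 28 and 49 over the 3 SK-Mel 24 libraries, at least an 18.2-fold difference on these pooled counts. CA12 was under 0.4 TPM in every library of both lines, and its call (-2.52 ± 0.83, adjusted p = 0.0144) ended without the third SK-Mel 24 library (-1.62, adjusted p = 0.155) or the second of SK-Mel 28 (-2.15, adjusted p = 0.0644). EGLN3 and VEGFA were not called: EGLN3 averaged 8.99 ± 0.38 TPM in SK-Mel 28 and 3.37 ± 0.16 TPM in SK-Mel 24 (0.41 ± 0.29, adjusted p = 0.26), and VEGFA 48.9 ± 12.1 TPM in SK-Mel 28 and 59.1 ± 0.5 TPM in SK-Mel 24 (-0.13 ± 0.28, adjusted p = 0.755). The EGLN3 transcripts differed: protein-coding ones held 25.6% of it in SK-Mel 28, against 61.1% in SK-Mel 24. These 2 lines also differed in serum, with 10% for SK-Mel 28 and 15% for SK-Mel 24, and its part in the difference cannot be told apart from the line.

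**Figure D4:**
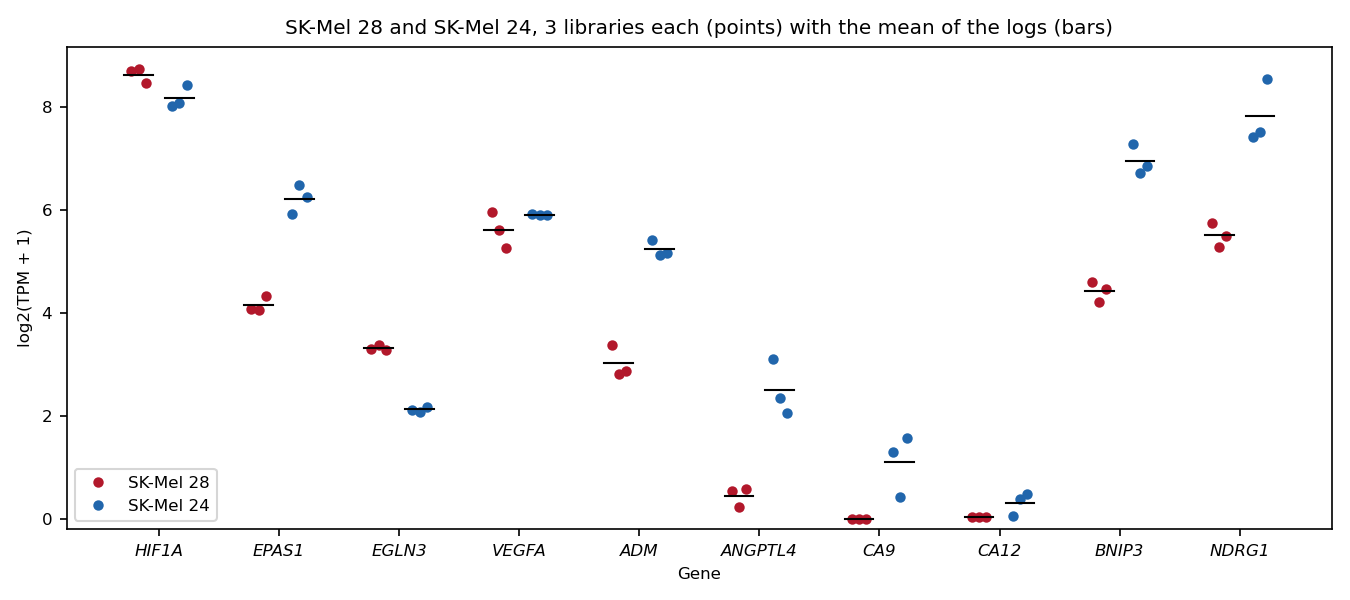
The 10 genes (horizontal axis) in SK-Mel 28 (red, left of each pair) and SK-Mel 24 (blue, right), as log2(TPM + 1) with 3 libraries each and bars for the mean of the logs. EPAS1, ADM, ANGPTL4, BNIP3 and NDRG1 are lower in SK-Mel 28 with no overlap. HIF1A and EGLN3 are higher there with no overlap, though neither was called by edgeR.

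Across the 9 lines the 10 genes did not move as one. The Pearson correlation of their line levels (mean log2 CPM) had a median of 0.23 over 45 pairs, from -0.64 for BNIP3 and EGLN3 to 0.80 for ADM and EPAS1, and 6 pairs exceeded 0.5. With HIF1A, the 8 target genes had a median correlation of 0.11, from -0.23 for ANGPTL4 to 0.58 for NDRG1. EPAS1 gave a median of 0.46, from 0.23 for VEGFA to 0.80 for ADM. All 8 were positive with EPAS1 and 6 of 8 with HIF1A, and the share over all genes was not counted. Without HepG2, on 8 lines, the medians were 0.04 for HIF1A and 0.45 for EPAS1. The Spearman rank correlation with EPAS1 was 0.7 for ADM but 0.05 for EGLN3. These are descriptions over few points: the genes share libraries, and all levels were scaled to the same totals.

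The genes whose line levels were most like each member were taken from up to 11508 protein-coding genes at 10 TPM or more in some line. For HIF1A they were MDGA1 (r = 0.985), UBE2W (0.976) and XRN1 (0.974), and 190 genes reached 0.9. For EPAS1 they were PPP2R1A (0.950), KCNE4 (0.910) and ARHGAP1 (0.908). EGLN3 was most like RALGAPA2 (0.962), ITGB6 (0.951), an integrin of epithelia, and GRHL3 (0.942), an epithelial transcription factor. BNIP3 was most like NR2F1 (0.962), SLC16A3 (0.930), a lactate exporter and a known HIF target, and GTF2H5 (0.924).

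NDRG1 came closest to TSC22D4 (0.986), HDHD2 (0.962) and MAML2 (0.926), and CA12 to FBXO21 (0.948), KCNK1 (0.937) and SMAD6 (0.937). ADM came closest to CTTN (0.927), CCDC92 (0.925) and COMMD6 (0.915). VEGFA reached 0.890 with ZNF721, 0.884 with CCNL1 and 0.882 with PAK1IP1. ANGPTL4 and CA9, with a line at 0, were most like OTUB1 (0.955), SDHAF2 (0.920) and MFSD5 (0.896), and C17orf49 (0.907), RIOX2 (0.905) and FAM57A (0.904). None of these closest genes was another of the 10.

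RefSeq promoter windows on GRCh38.p14, from 250 bases before to 50 bases after a gene's start, were given for 8 of the 10 genes, not for VEGFA and NDRG1. The HIF core letters ACGTG or GCGTG were searched on both strands. They were found in windows of 7 of the 8 genes, and in 48.4% of all 35116 windows (ACGTG in 21.4% and GCGTG in 36.5%). The EGLN3 window held none, and HIF1A had a match in 1 of its 2 windows. The following stretches each mark 1 match of a target gene that set lines apart. They are written 5′ to 3′ on the gene's strand, with the core or its reverse complement in capitals. They lie at chr9:35673898-35673926 (CA9), chr10:131982040-131982068 (BNIP3), chr19:8363909-8363937 (ANGPTL4), chr11:10304960-10304988 (ADM) and chr15:63382064-63382092 (CA12).
CA9: tcgtttccaatgCACGTacagcccgtaca
BNIP3: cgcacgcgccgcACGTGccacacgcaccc
ANGPTL4: ggaaagaagagtCACGTctcccacggttc
ADM: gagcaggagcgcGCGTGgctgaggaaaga
CA12: gcggatctcaccCACGCctgccagcagct
CA9, ANGPTL4 and ADM lie on the plus strand, and BNIP3 and CA12 on the minus strand. The CA9 match begins 18 bases before the start, the BNIP3 match shown 133 and the ADM match 101. The ANGPTL4 match and the CA12 match shown lie near the far end of the window. CA12 had 2 matches, and the one not shown begins at position 40 past the start. BNIP3 had 6 matches, the most of the 8 genes, of which the ACGTG on either strand overlap in the letters shown. A match describes letters only.

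Of 14 genes that regulate or partner HIF alpha (126 tests), 13 calls were higher and 13 lower, 10.3% each, against 20.3% and 13.6% for all genes. ARNT2, a partner subunit, had the widest range: it averaged 57.3 ± 9.5 TPM in SK-Mel 28 and 44.6 ± 6.4 TPM in SK-Mel 24, against 0.0801 ± 0.1387 TPM in Caco2. CITED2, a coactivator competitor, reached 641 ± 120 TPM in BJ (log2 fold change against the other lines 5.40). EP300, a histone acetyltransferase and HIF coactivator, was higher in SK-Mel 28 (40.3 ± 4.9 TPM, 1.45) and lower in HepG2 (1.82 ± 0.11 TPM, -2.24). ELOC, a subunit of the VHL ligase, stayed within 2-fold of the other lines in every line and had the smallest range, 0.61 on the log2 scale.

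Ligands and receptors around VEGFA and ADM came next. Of 9 genes of the VEGF family and its receptors (81 tests), 31 calls were higher and 19 lower, 38.3% and 23.5%. NRP2, a coreceptor, averaged 359 ± 30 TPM in U251, the line with most VEGFA, and 0.0436 ± 0.0180 TPM in RT4. FLT1, a VEGF receptor, reached 76.2 ± 7.0 TPM in BJ, and VEGFC, a lymphatic growth factor, 82.3 ± 31.3 TPM in BJ. VEGFB had the smallest range, 1.59, and a higher call in SK-Mel 24 (1.23). Of 5 genes of adrenomedullin's relatives and receptors 4 were tested, with 16 calls higher and 6 lower in 36 tests, 44.4% and 16.7%, against 20.3% and 13.6% for all genes. ADM2, a relative of ADM, was highest in Caco2 by TPM (10.1 ± 1.5), RAMP2, a receptor partner, likewise (23.7 ± 10.0), and RAMP1 in BJ (7.38 ± 3.32).

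Among 13 other genes of the carbonic anhydrase family, 9 were tested, with 25 higher and 16 lower calls in 81 tests, 30.9% and 19.8%. CA8 averaged 50.7 ± 10.0 TPM in SK-Mel 28 and 50.1 ± 9.3 TPM in SK-Mel 24, where CA12 was under 0.4 TPM, and CA5A 23.0 ± 12.8 TPM in HepG2. CA10 reached 8.19 ± 0.70 TPM in RT4 and averaged at most 0.434 TPM elsewhere. CA5B had the smallest range, 2.74, and was highest in SK-Mel 24 (24.9 ± 3.9 TPM). Of 9 relatives of the other members, 8 were tested, with 17 higher and 8 lower calls in 72 tests, 23.6% and 11.1%, near the shares of all genes. ANGPTL8 averaged 32.5 ± 23.3 TPM in HepG2, ANGPTL2 24.7 ± 4.9 TPM in BJ and NDRG2 71.1 ± 38.8 TPM in RT4, while NDRG3 stayed under 2-fold in every line.

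Further known HIF targets were tested as 2 lists. Of 25 non-glycolytic targets, each tested in 9 lines, 57 calls were higher and 41 lower, 25.3% and 18.2%, against 20.3% and 13.6% for all genes. By line, BJ had 12 higher (20.1% of all genes were) and 1 lower (13.1%), RT4 4 higher (18.6%) and 10 lower (14.2%), and U251 8 higher (15.0%) and 0 lower (11.6%; 3 at an unadjusted p under 0.05). The other 6 lines had 4 to 7 higher and 3 to 7 lower. RT4 was thus the line with most of the 10 members called higher and with the most lower calls of this list. EDN1, endothelin, averaged 114 ± 51 TPM in Caco2 and was listed at 0 in SK-Mel 28. STC2, a secreted glycoprotein, reached 130.3 ± 7.5 TPM in BJ, and KDM3A, a histone demethylase, stayed under 2-fold in every line.

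Of 20 glycolytic targets, each tested in 9 lines, 37 calls were higher and 33 lower, 20.6% and 18.3%, against the same 20.3% and 13.6%. By line, SK-Mel 24 had 8 higher (19.0% of all genes were) and 0 lower (11.2%; 0 also at an unadjusted p under 0.05), SK-Mel 28 7 higher (20.3%) and 1 lower (13.4%), and Caco2 3 higher (19.8%) and 7 lower (13.9%). The other 6 lines had 1 to 6 higher and 1 to 6 lower. SLC2A3, a glucose transporter, averaged 829.6 ± 233.8 TPM in Caco2 and 0.43 ± 0.32 TPM in RT4. HK1, the common hexokinase, averaged 0.0565 ± 0.0225 TPM in HepG2, against 6.24 ± 2.43 TPM in Caco2 and 49.3 to 125.6 TPM in the other 7 lines. ALDOC, an aldolase, averaged 0.221 ± 0.1997 TPM in SK-Mel 28, against 77.2 ± 4.2 TPM in SK-Mel 24. GAPDH stayed under 2-fold in every line. Between SK-Mel 28 and SK-Mel 24, 3 of these 20 were higher and 3 lower, and of the 25 other targets 4 were higher and 6 lower; of all genes 15.5% were higher and 16.5% lower.

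The transcripts behind a gene's TPM differed in HepG2. A retained-intron transcript at the 3′ end of the gene (chromosome 2, 46379700 to 46386696), held 77.3% ± 10.6 of the EPAS1 TPM in HepG2 (SD, n = 3), against 28.3% in Caco2, 23.2% in RT4 and 15.2% in BJ. The protein-coding share of EPAS1 was 24.9%, 9.64% and 4.89% in the HepG2 libraries. It was 38.4%, 88.7% and 86.5% in RT4 and 39.2%, 64.3% and 97.5% in Caco2. It lay between 65.6% and 92.6% in the libraries of the other 6 lines. Single libraries of RT4 and Caco2 thus approached HepG2.

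NDRG1 had the same form. A retained-intron transcript at its 3′ end held 75.9% ± 10.4 of the NDRG1 TPM in HepG2. Protein-coding transcripts held 23.3%, 13.4% and 16.9% in HepG2, against 43.8%, 39.5% and 73.1% in Caco2, 52.4%, 85.0% and 81.8% in BJ and 47.9%, 84.5% and 83.0% in RT4. For VEGFA the protein-coding share averaged 53.3% in HepG2 and 77.4% to 89.7% in the other lines. HIF1A and BNIP3 did not show this, with 95.0% and 99.7% in HepG2. The low HIF1A level of HepG2 was as low in protein-coding transcripts, 2.70 TPM on average against 31.9 in Caco2. The HepG2 libraries also had the higher retained-intron share over all genes given above. Its part in the EPAS1, NDRG1, VEGFA and CA9 levels was not tested.

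**Figure D5:**
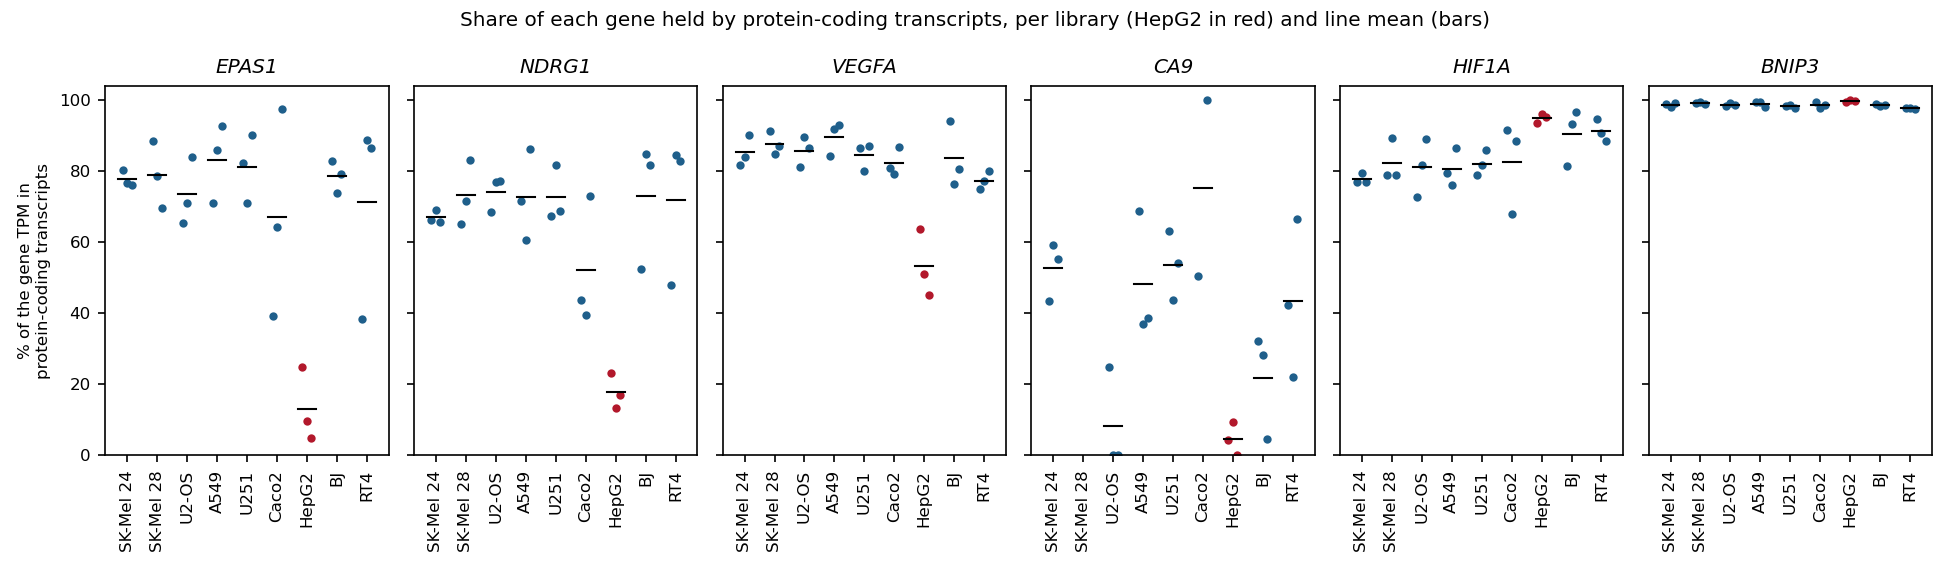
Percentage of a gene's TPM in protein-coding transcripts (vertical axis) for 6 of the genes, by line (horizontal axis), with libraries as points and line means as bars. HepG2 (red) lies between 4.89% and 24.9% for EPAS1 and at 99.7% on average for BNIP3; SK-Mel 28 has no CA9 counts and no CA9 point.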

How the data were processed

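Each library had 1 deposited table of transcripts, with an estimated count, a TPM and lengths per the file headers. Each deposited estimated count is the authors' share of reads for a transcript, often with decimals; their TPM is scaled to effective transcript length and library total. CASAVA 1.8, kallisto 0.43.1 and the GRCh 38 build are listed in the submitters' processing notes; neither the strand setting nor the transcript annotation is given in the sources used here. Of 176241 transcripts, 159887 matched GENCODE 29 and were summed to genes; 16354 (9.28%) were left out. Estimated counts were rounded to whole numbers and fitted by the robust quasi-likelihood method of edgeR 4.0.16 (R 4.3.3; TMM, filterByExpr, 1 coefficient per line, all 27 libraries, biological coefficient of variation 24.2%), with Benjamini-Hochberg adjustment over all 17220 genes of a contrast. Errors of log2 fold changes are the fold change divided by the root of F. The procedure was tested on simulated counts. No library was a copy of another within a line (lowest chi-square ratio 5.99). Alternatives used DESeq2 1.42.0, limma 3.58.1 on log2(TPM + 1), other scalings, a filter, covariate or libraries left out. The 10 genes and all lists were chosen with earlier results of these data known. From each list the text names the 3 genes with the largest and the 1 with the smallest range among those at 5 TPM or more, and for each member the 3 most similar genes. One gene that this rule names is not reported here.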

Additional observations from a re-analysis of the deposited data

How the results depend on the processing

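No paired analysis was possible because the labels give no replicate numbers shared between lines. Of 178 single values of the 10 genes, 118 had the same call in every alternative run. Member calls against the other lines ranged from 23 to 36 higher and 20 to 30 lower, and member calls over pairs fell to 199 without HepG2, which leaves fewer pairs. Members lower in U2-OS numbered 6 with DESeq2; with limma, members higher numbered 3 in BJ and 0 in HepG2, and members lower 0 in A549. Line-enriched members numbered 1 to 2 when 1 library was left out, with 1 without the first RT4 library.

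Reversals of sign, in values called in the main fit or in the alternative, all involved HepG2. With protein-coding transcripts only, EPAS1 in HepG2 against SK-Mel 28 was -1.71 (log2). On log2(TPM + 1) with limma it was -1.11, BNIP3 against the other lines -0.97, VEGFA against A549 -1.82, ADM against U2-OS -0.67, NDRG1 against Caco2 -1.001, BNIP3 against U251 -2.26 and EGLN3 against BJ -0.056. The ADM and EGLN3 values were not called by limma (adjusted p = 0.0666 and 0.888). The EPAS1, VEGFA, NDRG1 and BNIP3 pairs of lines were not called in the main fit. The cause was not tested. On log2(TPM + 1) the median of all genes in HepG2 was -1.21.

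DESeq2 gave 10 lower calls for adrenomedullin relatives and receptors and 13 for relatives of other members. Without HepG2, with fewer tests, HIF regulators had 8 higher and 8 lower calls and genes of the carbonic anhydrase family 10 lower. With limma, SK-Mel 28 against SK-Mel 24 had 1 member higher; genes lower numbered 9621 in HepG2, 1172 in A549, 1483 in SK-Mel 28, 960 in U2-OS and 1153 in SK-Mel 24, and genes higher 794 in HepG2, 1942 in BJ and 1910 in RT4. With no fold threshold, RT4 had 5306 genes higher and 4067 lower, BJ 5363 and 4133, Caco2 5449 and 4314, U251 4913 and 3503, A549 5468 and 3638, U2-OS 6575 and 3981, SK-Mel 28 5629 and 4050, and SK-Mel 24 5335 and 3707. A 2-fold margin gave 4113 line-enriched genes. Lines with few counts of CA9, ANGPTL4 or CA12 limit the precision of their values.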
